A study of Mus musculus with 8 samples.

Results

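T cells of isolated mouse islets were examined as the droplets that the deposited annotation calls T cells and that held fewer than 1000 UMIs (unique molecular identifiers, each standing for 1 captured RNA molecule) of the insulin gene Ins2. These were 181 of 6959 cells, 165 of the 3776 vehicle cells and 16 of the 3183 FAKi cells. The annotation named 196 T cells (168 vehicle, 28 FAKi), and 15 of them (3 vehicle, 12 FAKi) were left out as insulin-rich. The Ins2 cut fell in a wide gap, since Ins2 reached at most 129 UMIs in a vehicle member and 295 in a FAKi member, whereas the lowest droplets left out held 7686 and 6454. The members were thus selected on their Ins2 counts and on a cluster of their whole expression, so every gene value below is a description of the chosen cells and carries no test.

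The study asked how the inhibition of focal adhesion kinase, a kinase that acts downstream of integrins, changes the cells of the adult pancreas. Wild type mice, 6 to 12 weeks old at the start according to the methods, were given vehicle or the inhibitor FAKi (50 mg/kg, 2 doses a day over 3 weeks), with islet isolation 10 days after dosing ended. Each group was 1 single-cell library from about 1200 islets pooled from 5 mice, sequenced over 4 lanes. The T cells are therefore those that stayed with handpicked islets of non-diabetic mice, and no animal of a pool can be told from another.

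T cells recognize antigen through a receptor of paired variable chains, which cannot signal alone and sit in the membrane with the CD3 chains. The coreceptor CD4 or CD8 holds the receptor to MHC class II or class I, and naive T cells that recirculate through lymph nodes differ in their homing receptors from the memory cells that remain in a tissue. Natural killer (NK) cells and innate lymphoid cells share much of this program but lack a rearranged receptor, and all of these lymphocytes are sparse in the islets of healthy mice.

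Vehicle members held a median of 3703 UMIs (range 554 to 45748) and 1398 genes (314 to 6688), with 5.73% of UMIs from mitochondrial genes. FAKi members held a median of 3424.5 UMIs (700 to 25810) and 1457.5 genes, with 5.04% mitochondrial. Among the other vehicle cells, the 113 B cells were of similar depth (median 4137 UMIs), the 129 macrophages (7423) and 543 endothelial cells (5752) were deeper, and the 1076 beta cells were far deeper (30792.5). Between the libraries, 4 cell barcodes recurred, and none belonged to a member. A doublet caller marked 68 vehicle and 57 FAKi cells, of which 5 were vehicle members and none was an insulin-rich droplet.

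The label was checked against its markers. In vehicle members the leukocyte phosphatase gene Ptprc (CD45) was detected in 134 of 165 cells (81.2%, 95% Clopper-Pearson interval 74.4 to 86.9), the CD3 chain gene Cd3d in 105 (63.6%, 55.8 to 71.0) and Cd3e in 90 (54.5%, 46.6 to 62.3). Intervals here and below cover counting error only, not the spread between mice. Summed over 6 T-cell receptor genes (Cd3d, Cd3e, Cd3g, Trac, Trbc1 and Trbc2), 137 of 165 vehicle members held at least 2 UMIs (83.0%, 76.4 to 88.4). These cells are called T-receptor positive below. By the same rule 6 of 113 vehicle B cells (5.31%), 2 of 129 macrophages, 4 of 543 endothelial cells, 6 of 1076 beta cells and no alpha or acinar cell were positive. The label thus held for most vehicle members. The other 28 held fewer than 2 receptor UMIs, 16 of them none and 12 of them 1.

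**Figure D1:**
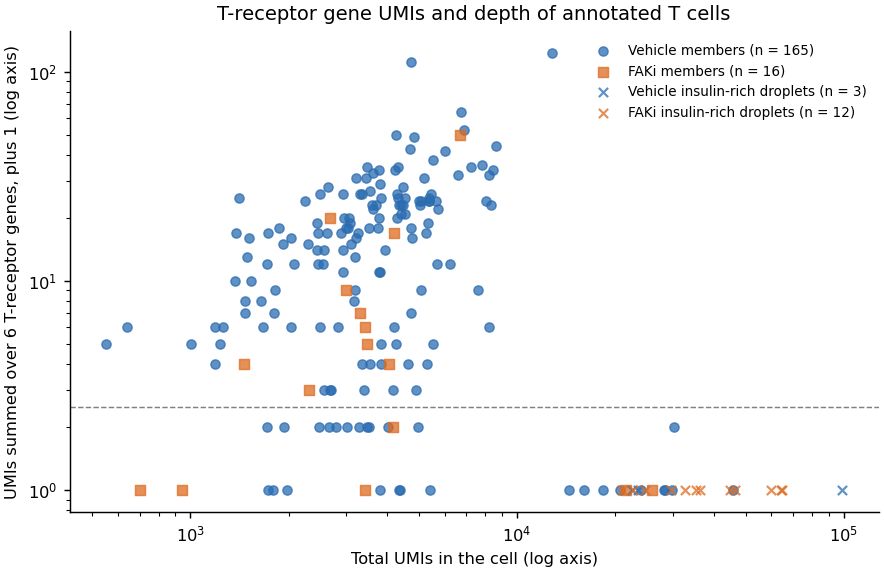
Total UMIs per droplet (horizontal, log scale) against the summed UMIs of 6 T-cell receptor genes plus 1 (vertical, log scale) for the 165 vehicle members (blue circles), the 16 FAKi members (orange squares) and the 15 insulin-rich droplets left out (crosses). The dashed line separates droplets with at least 2 receptor UMIs, and the members of over 10000 UMIs below it, 10 in vehicle and 2 in FAKi, sit at the lower right beside the insulin-rich droplets.

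These 28 vehicle members, called receptor-negative below, fell into distinct ranges of depth. Of these, 18 held at most 10000 UMIs, and 11 of the 18 carried NK or innate type 2 lymphoid genes, described below. The other 10 held 14381 to 45748 UMIs (median 26008.5), had 0 or 1 receptor UMI, and contributed 30.4% of all vehicle member UMIs. In 9 of these 10 at least 5 UMIs came from 7 cell-cycle genes (Mki67, Top2a, Birc5, Cdk1, Ccnb1, Ccna2 and Ube2c; median 55.5), compared with 2 of the 137 T-receptor positive cells. These deep droplets therefore carried cycling genes and, as the next values show, genes of other lineages.

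Among the 10, 1 held 15528 UMIs of the glucagon gene Gcg, which was 98.8% of the Gcg of all vehicle members. Another held 2403 and 4040 UMIs of the neutrophil genes S100a8 and S100a9. In a further pair the granule protease gene Prtn3 of myeloid precursors reached 609 and 495 UMIs. The MHC class II gene H2-Aa (397 UMIs) and the dendritic-cell chemokine receptor gene Xcr1 (14) marked 1 more, and 4 held epithelial keratin Krt8 (35 to 126 UMIs) together with Epcam. In 2 of these 4 the B-cell genes Cd79a (9 and 6 UMIs) and Igkc (27 and 32) were found as well, with H2-Aa (25 and 18). The last of the 10 droplets held at most 3 UMIs of any of these genes. Ptprc did not exceed 8 UMIs in any of them. Each pooled level below is for this reason given with the T-receptor positive cells, or with shares of cells, which a few deep droplets move little. The 15 insulin-rich droplets that the rule left out held no receptor UMI, and all 15 had at least 5 UMIs of the same cell-cycle genes.

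The antigen receptor itself was read through its constant genes, because reads of this library type come from the 3' end of a transcript. On mouse build GRCm38 the alpha constant gene Trac lies at chr14:54220521-54224206, plus strand, and the beta constant genes Trbc1 and Trbc2 lie side by side at chr6:41538218-41539881 and chr6:41546730-41548352, plus strand. The CD3 genes form a cluster on chromosome 9, with Cd3g at chr9:44969572-44980431 on the minus strand, Cd3d at chr9:44981786-44987339 on the plus strand and Cd3e at chr9:44998740-45009627 on the minus strand. V segment genes were detected in few members, the leading ones being Trbv12-2 in 4 cells and Trgv2, Trdv4 and Trbv2 in 3 cells each, so clones could not be followed.

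The paired beta constant genes encode almost the same chain, and how well their reads can be told apart bears on both values. In the GENCODE vM21 transcripts their coding parts are 518 bases each and differ at 23 bases (95.6% identity), with 1 difference in the first exon of 375 bases. The last 120 coding bases (399 to 518), where 19 of the differences lie, are shown with the differing bases in capitals.
Trbc1: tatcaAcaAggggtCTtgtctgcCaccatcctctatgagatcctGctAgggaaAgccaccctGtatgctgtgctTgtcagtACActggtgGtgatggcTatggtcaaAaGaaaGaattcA
Trbc2: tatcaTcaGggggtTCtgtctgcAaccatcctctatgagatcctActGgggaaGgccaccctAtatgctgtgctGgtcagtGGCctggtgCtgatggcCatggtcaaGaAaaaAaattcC
Past the coding part the transcripts run on for 219 bases in Trbc1 and 174 in Trbc2, and the longest stretch they share there is 8 bases. Of 421 windows of 98 bases, the read length, 187 within the coding part are identical between the genes. Reads near the 3' end thus separate the genes, while reads in the first exon mostly cannot.

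Receptor gene detection ranged widely between the 7 genes of the complex. Trbc2 was found in 135 of 165 vehicle members (81.8%, 75.1 to 87.4) at 905 CPM (UMIs of the gene scaled to a common total per group, as counts per 1e6 UMIs; exact Poisson 95% interval 842 to 972). The CD3 gamma chain gene Cd3g was found in 116 members (70.3%, 637 CPM) and Cd3d at 435 CPM. Trac was found in 92 members (55.8%, 336 CPM), Trbc1 in 78 (47.3%, 512 CPM), Cd3e at 289 CPM (254 to 327) and the zeta chain gene Cd247 in 46 (27.9%, 68.9 CPM). Levels are per UMI and not per transcript length, so their order between genes follows detection in this assay. In the 137 T-receptor positive cells, Trbc2 stood at 1424 CPM, Cd3g at 1012 CPM and Cd3e at 458 CPM.

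In B cells and macrophages, which should lack the receptor, the same genes were close to absent. Cd3e was detected in 3 of 113 B cells and 1 of 129 macrophages, and Trbc2 in 2 and 1. After each cell was thinned to 1000 UMIs, Trbc2 was still found in 58.3% of 163 vehicle members (50.3 to 65.9) and in none of 111 B cells or 117 macrophages. Ptprc, which all leukocytes carry, was found in 37.4% of thinned members, 38.7% of thinned B cells and 31.6% of thinned macrophages. The CD3 and receptor genes, not Ptprc, set the members apart from the other leukocytes.

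**Figure D2:**
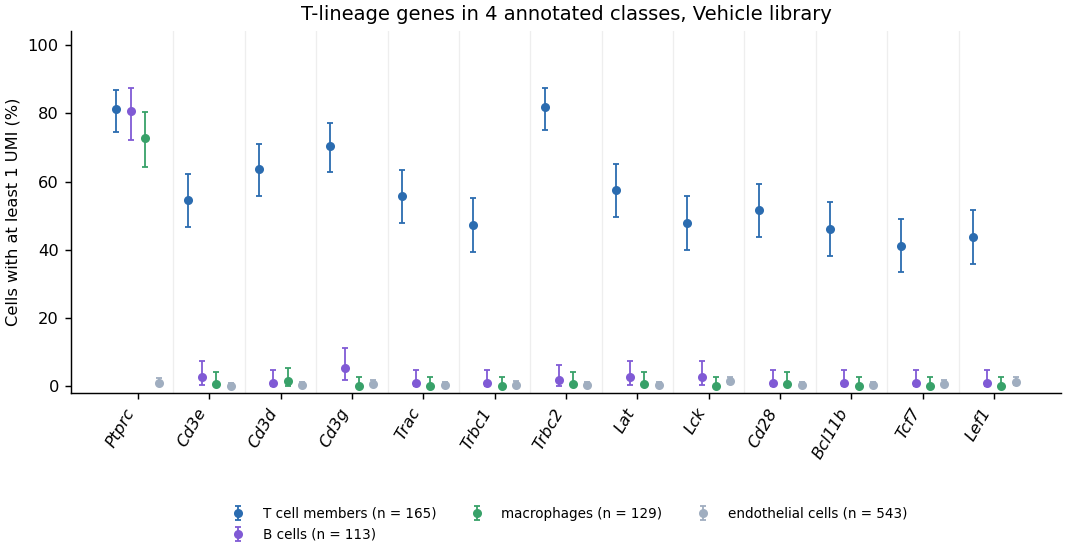
Share of cells with at least 1 UMI (percent, bars are Clopper-Pearson 95% intervals) for 13 lineage genes in vehicle T-cell members (n = 165), B cells (n = 113), macrophages (n = 129) and endothelial cells (n = 543). Trbc2 was found in 81.8% of members and in 2 B cells, whereas Ptprc was shared by all 3 leukocyte classes.

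Both beta constant genes were often counted in the same cell. Of the 137 T-receptor positive vehicle cells, 69 had UMIs of both, 57 of Trbc2 alone, 8 of Trbc1 alone and 3 of neither. In the 88 cells with at least 5 UMIs over the pair, 29 had no Trbc1, 2 had no Trbc2 and 54 had a Trbc1 share between 10 and 90%. Where Trbc1 was found, its median share of the pair was 46.2%. A mature T cell as a rule makes 1 beta chain. Since part of the reads cannot be assigned to 1 of these genes by sequence, the level of each gene alone is uncertain, and the source of the mixed counts was not tested.

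Compared with the B cells, members were higher by at least 2-fold, with an interval that leaves out 1, for 794 of 5605 genes (14.2%), and compared with macrophages for 1328 of 6878 (19.3%). Of the 7 genes of the receptor complex, 7 were higher in each comparison, with median log2 ratios of 4.53 over B cells and 5.11 over macrophages, where the medians of all genes were 0.19 and 0.26. Of the 9 B-cell markers 9 were lower than in B cells, and of the 9 macrophage markers 9 were lower than in macrophages, where 6.23% and 12.9% of all genes were lower. Without the members of over 10000 UMIs the counts for these 3 lists were the same, and the receptor medians were 5.07 and 5.62.

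The kinases and adaptors that carry the receptor signal followed it. All 20 genes of the signalling list were detected in at least 10% of vehicle members. Of the 18 that could be compared with B cells, 13 were higher and 1 was lower, against 14.2% and 6.23% of all genes. Without the members of over 10000 UMIs the counts were 13 and 0. The adaptor gene Skap1 was found in 116 members, Fyb in 112, Lat, the scaffold that the receptor kinases phosphorylate, in 95 (57.6%, 241 CPM) and the Src-family kinase gene Lck, which starts the signal, in 79 (47.9%, 192 CPM). Lck was found in 3 B cells, at 4.74 CPM. The kinase gene Zap70 was sparser, in 33 members. Surface partners included the costimulatory receptor Cd28 in 85 members, the adhesion receptor Cd2 in 78, Thy1 in 66, and the negative regulators Cd5 and Cd6 in 53 and 45.

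Transcription factors of the T lineage were detected alongside. Ets1 was found in 125 vehicle members (75.8%), the chromatin organizer gene Satb1 in 98 (59.4%), Bcl11b, which maintains T-cell commitment, in 76, and the paired factors of naive and memory precursor cells Lef1 and Tcf7 in 72 and 68. Gata3 was found in 49. Of the other factors of this list, Id2 was found in 102 members, Ikzf1 in 76, Runx3 in 48, Ikzf3 in 33 and Tox in 32, whereas Tbx21 and Eomes were found in 11 each, Foxp3 in 6 and Zbtb16 in 4. Of the 11 genes of this list that could be compared with B cells, 7 were higher in members and 1 was lower, against 14.2% and 6.23% of all genes. Without the members of over 10000 UMIs the counts were 7 and 0. Lef1 was 19.9-fold higher (8.96 to 55.2) and Tcf7 26.9-fold (10.3 to 100.1).

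Ranked by the ratio to all other vehicle cells, the leading 20 genes among those detected in at least 10% of members began with Trbc2 (log2 ratio 6.31), Ccl5 (6.01), Cd3g (5.84), Trbc1 (5.59), Cd3d (5.38) and Nkg7 (5.10). They went on through Ms4a4b, Cd28, Trac and the lymphotoxin gene Ltb (4.88) to pan-leukocyte genes such as Rac2, Arhgdib, Cd52, Ptprc and Coro1a, and ended with Il7r (4.37) and Cd69 (4.33). Of these 20 genes, 6 belonged to the receptor complex. By level, the first gene of the members after mitochondrial and ribosomal protein genes was Gcg at 18665 CPM, but in the T-receptor positive cells Gcg stood at 269 CPM. S100a9 likewise fell from 4815 CPM in all vehicle members to 1.89 CPM in T-receptor positive cells. In both sets the nuclear RNA Malat1 and the abundant genes Tmsb4x, Tpt1, Eef1a1 and Actb followed, and 16 of the leading 20 were shared.

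The coreceptors divided the T-receptor positive cells without overlap. Of the 137 cells, 26 had a UMI of Cd8a or Cd8b1 and none of Cd4 (CD8 class, 19.0%, 12.8 to 26.6), 27 had Cd4 and neither CD8 gene (CD4 class, 19.7%, 13.4 to 27.4), none had both (the limit that a count of 0 sets on cells with UMIs of both is 2.19%), and 84 had neither (61.3%). The CD8 alpha and beta genes were found together in 14 cells, Cd8a alone in 7 and Cd8b1 alone in 5. A class of this kind is a range of detected UMIs, and the 84 cells may hold coreceptors that were not captured. Detection rested on few UMIs, since Cd4 reached at least 2 UMIs without CD8 in 6.57% of the T-receptor positive cells.

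Apart from the coreceptors that define them, the CD8 and CD4 classes (median 4743.5 and 3587 UMIs per cell) differed first in cytotoxic genes. The granule gene Nkg7 was detected in 23 of 26 CD8 class cells (88.5%, 69.8 to 97.6) and in 2 of 27 CD4 class cells (7.41%, 0.910 to 24.3), at 795 and 28.3 CPM (ratio 28.1, 9.35 to 138). The NK receptor chain gene Klrd1 (CD94) was detected in 12 and 1 cells, on too few UMIs for a call. The granule peptidase gene Ctsw had a ratio of 7.35 (2.64 to 28.4). The chemokine gene Ccl5 held 550 UMIs in 7 CD8 class cells and none in the CD4 class, at least 146-fold higher against a floor of 3 UMIs over the group. The granzyme gene Gzma held 257 UMIs against 1, but 252 of them came from a single cell. Nkg7 thus marked nearly the whole class, while Ccl5 and Gzma marked a few cells of it.

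At the other end, the 10 genes lowest in the CD8 relative to the CD4 class were Cd4, Malt1, Dusp10, Bhlhe40, Ctla4, Ppy, Sdf4, Cd5, Fkbp1a and Dusp5. The inhibitory receptor gene Ctla4 was detected in 8 of 27 CD4 class cells and 2 of 26 CD8 class cells (ratio of CD8 to CD4 class 0.265, 0.130 to 0.507), and Cd5 in 22 and 10 (0.310, 0.163 to 0.565). The protease gene Malt1, which acts in receptor signalling but is not in the signalling list, had a ratio of 0.214, the repressor gene Bhlhe40 0.256 and the phosphatase gene Dusp10 0.265. Of the 12 genes of the signalling list that could be compared, Cd5 and Cd2 (0.439, 0.245 to 0.768) were lower and the phosphatase gene Ptpn22 was higher (2.48, 1.09 to 6.37). The costimulatory receptor gene Cd28 was not called (ratio 0.571, 0.404 to 0.802). Genes with too few UMIs for a call included Icos, found in 10 CD4 and 3 CD8 class cells, Tnfrsf4 (OX40) in 7 and 0, and Cd40lg, the T-cell help ligand, in 5 and 0. Of 7 naive and recirculating genes, Klf2 was higher in the CD8 class (2.02, 1.67 to 2.47), Il7r was lower (0.462, 0.243 to 0.851) and 5 were not called, among them Lef1, in 20 of 26 CD8 and 16 of 27 CD4 class cells, and Ccr7, in 18 and 15.

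Across all 979 genes that could be compared, 59 were higher (6.03%) and 56 lower (5.72%) in the CD8 class. Calls could rest on few cells, and 50 of the 59 higher genes and all 56 lower ones were detected in at least 3 cells of the higher class. Of the 5 cytotoxic genes tested, 5 were among the higher ones, with a median log2 ratio of 4.39 where that of all genes was -0.09, and 4 of these (Nkg7, Ctsw, Ccl5 and Gzma) were detected in at least 3 CD8 class cells, Gzmb in 2. Trac was lower, at a ratio of 0.447 (0.319 to 0.620). The higher genes also included 8 of 8 acinar markers, each detected in at least 3 CD8 class cells. The 4 stromal markers called (Col1a1, Col1a2, Col3a1 and Dcn) were each found in 1 CD8 class cell. A single cell also carried 93.2% of the Spp1, 95.7% of the Clu and 71.2% of the Apoe UMIs of the class, each taken separately. Without the droplets that the doublet caller marked, 36 genes were higher and Apoe turned to a log2 ratio of -0.44. The part of a second cell in these values was not otherwise tested.

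**Figure D3:**
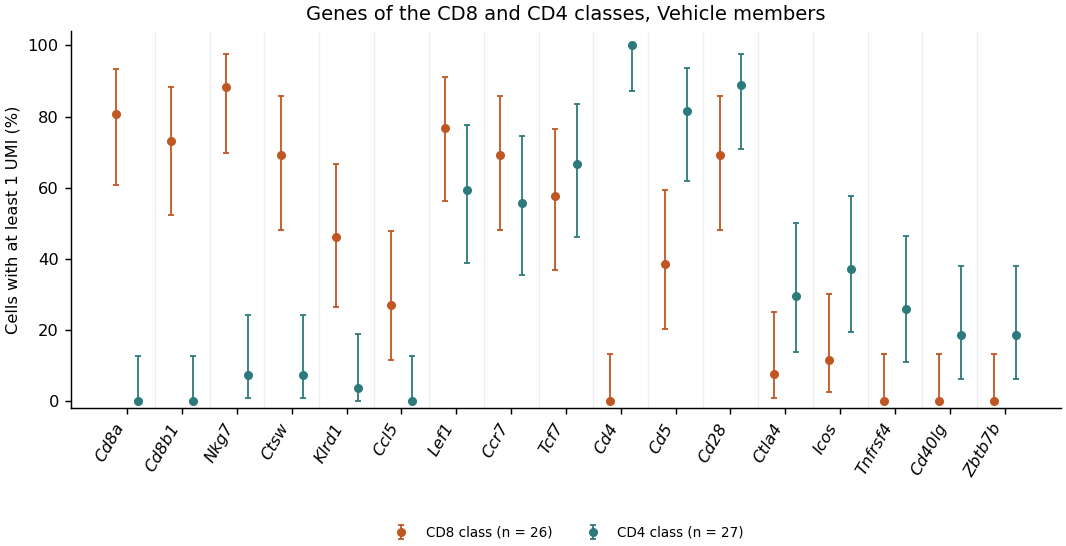
Share of cells with at least 1 UMI (percent, bars are Clopper-Pearson 95% intervals) for 17 genes in the CD8 class (n = 26) and the CD4 class (n = 27) of vehicle T-receptor positive cells. Nkg7 was found in 23 CD8 and 2 CD4 class cells, Cd5 in 10 and 22, while Lef1 and Ccr7 were found in many cells of both.

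Homing receptors divided the same cells along another line. The lymph-node homing receptor gene Ccr7 was detected in 60 of the 137 T-receptor positive cells and the tissue homing receptor gene Cxcr6 in 32, but only 1 cell had both, and 46 had neither. This split was chosen after these values were seen. Among the 59 cells with Ccr7 and no Cxcr6 (median 3539 UMIs), 46 had Lef1, 37 Tcf7, 29 the egress receptor gene S1pr1, 57 Klf2, the factor that maintains these homing genes, and 48 Satb1. Among the 31 cells with Cxcr6 and no Ccr7 (median 4491 UMIs), 8 had Lef1, 8 Tcf7, 4 S1pr1, 15 Klf2 and 16 Satb1. The Ccr7 cells thus carried the genes of naive and recirculating lymphocytes, although they were the shallower set.

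The Cxcr6 cells carried a different set. In these 31 cells, 24 had the calcium-binding protein gene S100a4, 22 the nuclear receptor gene Rora, 21 the chemokine receptor gene Ccr2, 19 Gata3, 16 Cd44, 15 the interleukin-2 receptor gene Il2ra and 14 Ikzf2. In the 59 Ccr7 cells the counts were 1, 3, 1, 10, 9, 3 and 4. The interleukin-7 receptor gene Il7r was found in 23 of 31 and 19 of 59. Of the 31 Cxcr6 cells, 11 were also positive for innate type 2 genes by the rule given below, which names Gata3. Receptor genes were sparser in the Cxcr6 cells, where Cd3d was found in 13 of 31, Cd3e in 13 and Trac in 11, against 55, 49 and 51 of 59 Ccr7 cells, while Trbc2 was found in 30 and 57. All 13 cells with Cd3d and all 13 with Cd3e were among the 20 Cxcr6 cells without the innate type 2 genes, of which 14 had S100a4, 13 Rora, 12 Ccr2, 10 Trac, 8 Gata3, 8 Lef1 and 4 S1pr1. The integrin gene Itgae (CD103) of epithelial resident T cells was rare in both sets, in 1 Cxcr6 and 2 Ccr7 cells. Coreceptors were also sparser in the Cxcr6 cells, with Cd4 in 2 and Cd8a in 3 of the 31, against 15 and 15 of the 59. Among all 137 T-receptor positive cells Cd4 was found in 27 and Cd8a in 21, so both were also found outside these sets.

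Genes of NK cells were concentrated in few members. At least 2 of 6 NK genes (Ncr1, Klrb1c, Klre1, Klrd1, Klrk1 and Klra8) were detected in 19 of 165 vehicle members (11.5%, 7.08 to 17.4). Of the 19, 13 were T-receptor positive and 6 were not. In the 6 receptor-negative cells, the activating receptor gene Ncr1 (NKp46, chr7:4337724-4345164, plus strand), Klre1, Klrd1, Klrk1 (NKG2D), the factor gene Eomes and the adaptor genes Tyrobp and Fcer1g were found in 4 each, and Gzma and Ccl5 in 5 each, with 208 and 198 UMIs. By the rule each of these 6 cells held at most 1 receptor UMI, and Trbc2 was found in 1.

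The 13 NK gene positive cells with a receptor had Klrk1 and Nkg7 in 13, Klrd1 and Ccl5 in 11, Tyrobp in 8, Ncr1 in 7 and Gzma in 6, alongside Cd3d in 10, Trbc2 in 9 and Cd8a in 4. Their Ccl5 UMIs summed to 634 of the 1117 in all vehicle members. Across the 19 cells, the interferon gamma gene Ifng was found in 10 and the chemokine gene Xcl1 in 7, where all 165 members had 19 and 14. Whether the receptor and NK genes of these 13 came from 1 cell each was not tested, but 5 members in all were marked as doublets.

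Cytotoxic genes were uneven within the members as a whole. Nkg7 was found in 51 vehicle members (30.9%), Ccl5 in 31 (18.8%, 1327 CPM), the death ligand gene Fasl in 30, Gzma in 14, the perforin gene Prf1 in 12, Gzmb in 9 and Gzmk in 3. Gzma summed to 594 UMIs, of which 252 (42.4%) were from 1 cell that held 4746 UMIs, 111 of them from the 6 receptor genes. That cell also carried Trdc, the delta-chain constant gene.

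A further set carried genes of type 2 innate lymphoid cells, which respond to interleukin-33 and secrete type 2 cytokines. At least 2 of Il1rl1, Areg, Il5 and Gata3 were detected in 18 vehicle members (10.9%, 6.60 to 16.7), none of them also NK gene positive; Il13, the last gene of the rule, is not among the 19945 genes of the table. By the rule 18 of the 18 had Gata3, 11 had the interleukin-33 receptor gene Il1rl1, 6 had Areg and 5 had Il5. Among genes that the rule did not name, 17 of 18 had Cxcr6 (94.4%, 72.7 to 99.9), 16 Il7r, 15 Ccr2, 14 Rora, 10 Il2ra and Bcl11b each, 8 Icos, 7 the cytokine gene Csf2 and 6 Klrg1.

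Their T-cell receptor genes were partial. None of the 18 had Cd3d, Cd3e, Lck or Cd28, and 1 had Trac, yet 15 had Trbc2 (39 UMIs), 7 Cd3g and 6 Trbc1, so that 13 counted as T-receptor positive. Cd3e was detected in 89 of all 137 T-receptor positive cells. The alpha-beta receptor is therefore not shown for these 18 cells, and a receptor count that rests on Trbc2 and Cd3g includes them. Without Trbc2 the T-receptor positive share of vehicle members was 75.2%. The NK and innate type 2 sets together with the T-receptor positive cells accounted for 148 of 165 vehicle members, leaving the 10 deep droplets and 7 shallow cells.

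**Figure D4:**
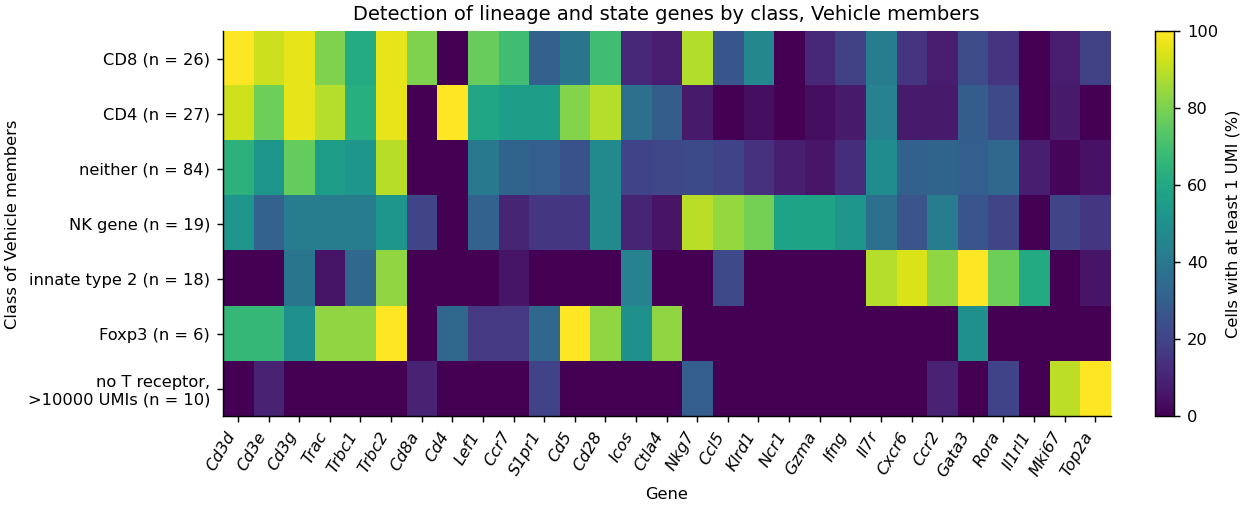
Share of cells with at least 1 UMI (percent, colour scale) for 29 genes in 7 classes of vehicle members (rows, which can share cells). CD3 genes fade in the innate type 2 row, where Gata3, Cxcr6 and Il7r are widely detected, NK genes appear in the NK gene row, and receptor genes are near 0 in the row of members over 10000 UMIs with 0 or 1 receptor UMI.

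Gamma-delta receptor genes were sparse. The constant genes Trdc and Tcrg-C1 were found in 5 vehicle members each, Tcrg-C2 in 6 and Tcrg-C4 in 24, for 30 cells with any of them (18.2%). Of the 24 Tcrg-C4 cells, 9 were innate type 2 gene positive. The 5 Trdc cells also had Cd3d in 5, Trbc1 and Trbc2 in 4 each and Trac in 3, so Trdc did not separate a receptor type here.

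Genes of the regulatory T list differed in how widely they were detected. The regulatory factor gene Foxp3 was found in 6 of 165 vehicle members (3.64%, 1.35 to 7.75), and all 6 had Trbc2 and Cd5, 5 had Ctla4, 4 Izumo1r (folate receptor 4), 4 Ikzf2 and 1 Il2ra. Most of the list reached beyond these 6 cells, with the receptor gene Tnfrsf18 (GITR) in 64 of 165 members (38.8%), Ikzf2 in 43 (26.1%), Ctla4 in 29, Il2ra in 27, Izumo1r in 19 and Tnfrsf4 in 15. Of the other inhibitory receptors, Cd160 was found in 8, Pdcd1 (PD-1) in 5, Lag3 in 3 and Havcr2 in 2, whereas Tigit and Il10 were found in none. A count of 0 limits cells with a UMI to 1.82%, and cells with an uncaptured transcript are not limited by it. Of the cytokine and chemokine list, Ltb was found in 136 members (82.4%, 713 CPM), Tgfb1 in 42, Ccl5 in 31, Ifng in 19, Tnf in 18, Csf2 in 15, Xcl1 in 14 and Il5 in 5. Il4, Il17a and Il21 are not among the genes of the table.

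Proliferation was rare in the T-receptor positive cells. Mki67 was found in 5 of the 137, and 2 cells held at least 5 UMIs of the 7 cell-cycle genes. Early activation genes were by contrast widespread, with Jun in 123 of 165 vehicle members, Fos in 109, Rgs1 in 91 and Cd69 in 71. Compared with B cells, 1 of the 14 early response genes was higher in members, against 14.2% of all genes. MHC class I genes were broadly detected, H2-D1 in all 165 members and H2-K1 in 161, and of the 8 tested 2 were higher than in B cells, or 4 without the members of over 10000 UMIs. Interferon response genes were low, with Irf7 in 13 members, Isg15 in 12 and Ifit3 in none.

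RNA of endocrine and exocrine cells varied widely between the members. All 165 vehicle members held UMIs of the 9 endocrine markers, at a median of 0.644% of a cell's UMIs (0.0338 to 36.5%), and 145 held UMIs of the 9 acinar markers, at a median of 0.0918% (0 to 15.6%). In B cells the medians were 0.540% and 0.0936%. Ins2 itself had a median of 13 UMIs per member, compared with 14 per vehicle endothelial cell. Endothelial and stromal markers were each found in few members, 33 and 13, and 55 held a UMI of the 9 macrophage markers (0 to 690 UMIs per cell). Of those 9, the protease gene Ctss was found in 39 members, Apoe in 21 (310 UMIs) and Lyz2 in 4, where 690 of 701 UMIs came from 1 deep droplet. C1qa and Cd68 were found in 3 each, Adgre1 in 1, and C1qb, C1qc and Csf1r in none. In T-receptor positive cells Apoe was found in 14 of 137 and Lyz2 in 1. The part of these markers in the other values was not tested.

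The FAKi library held 16 members, which limits what can be said of them. T-receptor positive cells were 10 of 16 (62.5%, 35.4 to 84.8). Trbc2 was found in 10 (62.5%), Cd3g in 6, Cd3d in 3, Cd3e in 2 and Trac in 2, and Ptprc in 11. Neither Cd4 nor a CD8 gene was detected in the 10 positive cells, a count of 0 whose upper limit for cells with a UMI is 30%. Of the 6 receptor-negative cells, 2 held over 10000 UMIs (25810 and 21560) and 52.0% of all FAKi member UMIs. These 2 carried H2-Aa (345 and 199 UMIs), the class II invariant chain gene Cd74 (392 and 300) and Xcr1 (10 and 18), and both had at least 5 cell-cycle gene UMIs.

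Over all members, 236 of 4283 genes were higher in the FAKi library (5.51%) and 297 lower (6.93%), with 1 library per condition and thus no test. The class II genes H2-Aa (log2 ratio 3.46), H2-Eb1 (3.20), H2-Ab1 (3.18) and Cd74 (3.15) led the higher genes, together with Acox3 (3.60). The lower ones began with S100a9, S100a8 and Prtn3, for which the deep vehicle droplets described above held high counts. In T-receptor positive cells alone these genes were near 0, H2-Aa with no UMI in FAKi and 4 in vehicle cells and Cd74 with 1 and 25, and the log2 ratios were -0.81 for H2-Aa, -0.81 for H2-Ab1 and -0.56 for Cd74. H2-Eb1 (1 and 6 UMIs, log2 ratio 0.87) and Acox3 (1 and 3 UMIs, 1.31) kept a positive value, on too few UMIs for a call. The comparison that follows therefore uses the 10 FAKi and 137 vehicle T-receptor positive cells, in which 122 of 2542 genes were higher (4.8%) and 84 lower (3.3%), with a median log2 ratio of -0.06 over all genes.

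Within these cells the naive and recirculating genes were lower in the FAKi library. Of the 8 genes, 6 were lower and 1 higher, with a median log2 ratio of -2.38. Lef1 was detected in 1 of 10 FAKi and 70 of 137 vehicle cells (57.8 and 297 CPM, ratio 0.195, 0.0234 to 0.716) and Ccr7 in 1 and 60 (ratio 0.152, 0.0183 to 0.557). Klf2 was detected in 3 and 111 cells (347 and 1661 CPM, ratio 0.209, 0.108 to 0.367). S1pr1 was found in none of the 10 and in 48 of the 137, and the single higher gene of the list was Il7r, in 8 and 64 cells (1012 and 274 CPM, ratio 3.69, 2.48 to 5.37).

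Of the memory and tissue resident list, 4 of the 9 genes that could be compared were higher (Cxcr6, Ccr2, Rgs1 and S100a4) and 1 was lower (Ahnak, ratio 0.285, 0.0581 to 0.848), with a median log2 ratio of 0.83. Of Cxcr6 and the 7 genes named above for the Cxcr6 cells, 5 were higher in the FAKi cells (Cxcr6, S100a4, Ccr2, Gata3 and Ikzf2). The other 3 were not called, Rora (ratio 1.48, 0.656 to 2.93), Cd44 (1.85, 0.711 to 4.05) and Il2ra (2.73, 0.823 to 7.16). These 7 genes were picked in the same vehicle cells for going with Cxcr6, so their count is not separate from the difference in Cxcr6. Cxcr6 was detected in 8 of 10 FAKi and 32 of 137 vehicle cells (665 and 204 CPM, ratio 3.26, 1.98 to 5.14), Gata3 in 5 and 39 (ratio 3.40, 1.92 to 5.71) and Ikzf2 in 5 and 33 (ratio 2.60, 1.43 to 4.45). Of the 6 cytotoxic genes that could be compared 3 were lower, Ccl5 (1 UMI against 917), Nkg7 (none against 185) and Gzma (none against 386). Most of the vehicle Gzma came from the 1 cell described above. Fasl, Gzmb and Ctsw were not called. Cd5 was lower too (none against 98 UMIs). Of the 10 FAKi cells, 4 were positive by Trbc2 alone and 3 of the 16 members had a UMI of Cd3d, Cd3e or Trac. Of the 7 receptor genes 2 were lower, Cd3e (ratio 0.442, 0.176 to 0.925) and Trbc1 (0.498, 0.270 to 0.844), at a list median of -0.73. These cells were chosen by UMIs of 6 of the 7 genes, which limits what the comparison can show. Over all members 5 of the 7 were lower, at a median of -1.41. Without members of over 10000 UMIs 2 were lower, at a median of -0.92. In the T-receptor positive cells Ptprc was lower as well (0.377, 0.171 to 0.724).

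Of the 14 early response genes, 5 were higher and 9 were not called, at a median log2 ratio of 0.84. Fos held 148 UMIs in the 10 FAKi cells (ratio 5.33, 4.39 to 6.43), of which 72 came from 1 cell, and Jun held 159 (4.75, 3.95 to 5.68), 70 of them from 1 cell. The heat shock genes Hspa1a (71 UMIs, 54 in 1 cell) and Dnajb1 (59 UMIs, 42 in 1 cell) were carried likewise by 1 cell each. Of 8 endocrine markers 3 were higher. Each FAKi member held endocrine marker UMIs, at a median of 1.68% of its UMIs against 0.644% in vehicle, and acinar marker UMIs at 0.454% against 0.0918%. With 16 cells from 1 pool of mice, treatment, pool and the chance of which cells were captured cannot be told apart.

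**Figure D5:**
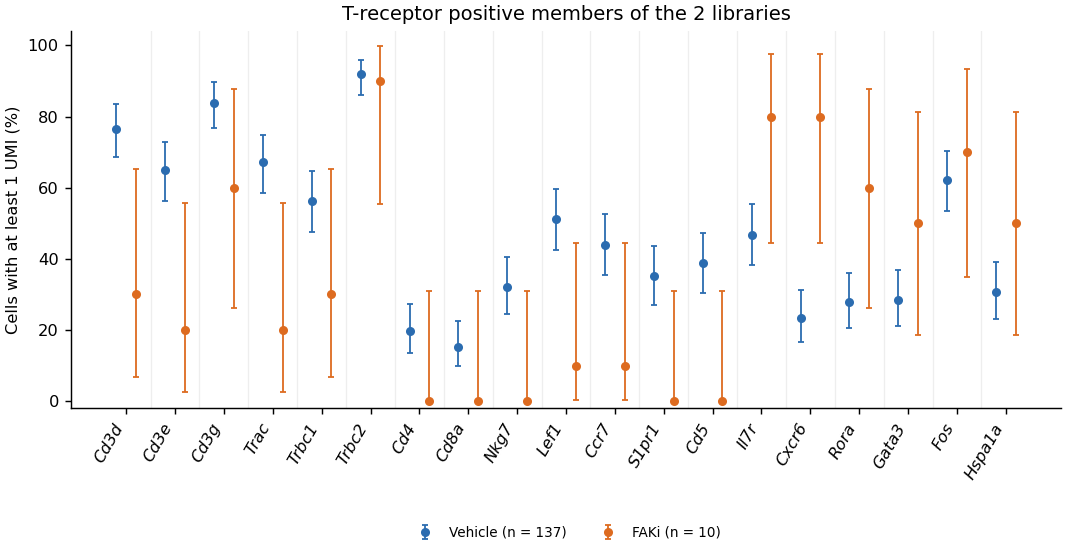
Share of cells with at least 1 UMI (percent, bars are Clopper-Pearson 95% intervals) for 19 genes in T-receptor positive cells of the vehicle (n = 137) and FAKi (n = 10) libraries. Il7r and Cxcr6 were each found in 8 of the 10 FAKi cells, Lef1 and Ccr7 in 1 each, and the FAKi bars are wide.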

How the data were processed

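Mouse islet cells of a vehicle and a FAKi library were captured on the 10x platform, and 98-base cDNA reads were sequenced from 4 lanes per library. According to the submitters' processing notes and the study's methods, the authors aligned reads to mm10 and counted UMIs with Cell Ranger, set filters in Seurat 3.1 with the mitochondrial share capped at 8%, normalized counts with SCRAN, integrated the libraries with scanorama and clustered the integrated cells by the Louvain method. Raw UMI counts of 19945 genes in 6959 cells were deposited (about 8500 were sequenced, per the series text), all at or under that cap, and the deposited metadata gives the mitochondrial percent, library and cell type per cell. Columns do not keep lanes apart, so each condition is 1 library, and its 59514118 (vehicle) or 57836783 (FAKi) UMIs set the precision.

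Members are the annotated T cells under 1000 Ins2 UMIs. Members and gene lists were chosen with earlier results of these data known. Cells were classed by detected UMIs, and counts were summed per group and divided by total UMIs (CPM). Shares carry Clopper-Pearson, CPM exact Poisson and ratios exact conditional binomial 95% intervals. A gene counted as higher or lower at a ratio of at least 2 or at most 0.5 with an interval leaving out 1, among genes with at least 30 UMIs in both groups together, from however few cells. Genes named at the ends of a comparison were also detected in at least 3 cells of the higher group. Log2 ratios used a pseudocount of 10 CPM. A group at 0 was set to a floor of 3 UMIs for folds.

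Named genes were those of the lists, the 20 highest by CPM and by ratio to other vehicle cells, and 10 at each end of a comparison. The split by Ccr7 and Cxcr6, Trbv12-2 and the other V segments of few cells, and genes of T-receptor positive cells alone (Hspa1a, Dnajb1) were chosen after their values were seen. Doublets were called with scrublet in scanpy 1.11.5 and kept. Computation used Python 3.11.15 with scipy 1.17.1, numpy 2.4.6 and pandas 2.3.3, plots used matplotlib 3.10.9, and the scripts were tested on simulated data. Alternatives were other Ins2 cuts, no doublets, deeper cells only, thinning to 1000 UMIs, means over cells, totals without islet genes, stricter coreceptor calls, 10 UMIs per gene and a pseudocount of 100 CPM. Leaving out members of over 10000 UMIs, T-receptor positive cells only, calls from at least 3 cells of the higher group, at least 3 receptor UMIs and receptor genes without Trbc2 were added after the data were seen. Some genes of the lists are not reported here.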

Additional observations from a re-analysis of the deposited data

How the results depend on the processing

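No paired analysis was possible because each condition is 1 library whose lanes are not kept apart, and leaving out a replicate could not be done either. Under 15 alternatives, 108 of 129 values of the comparisons stayed close to the main value. Of 360 log2 ratios of named genes, 354 did not change sign, whether or not the gene still passed the threshold. Those that moved follow. Thinned to 1000 UMIs, the T-receptor positive share of vehicle members was 68.1%, that with NK genes 5.52%, that with innate type 2 genes 1.84% and that with Cd3e 28.2%, so these shares depend on depth. Without Trbc2 the T-receptor positive share was 75.2%, and with 2 coreceptor UMIs required the CD4 class was 6.57%. Trbc2 stood at 773 CPM without the Ins2 cut, 1235 CPM as a mean over cells and 1202 CPM without members of over 10000 UMIs. Genes higher in FAKi members numbered 396 without the Ins2 cut, 143 without members of over 10000 UMIs and 122 in T-receptor positive cells, and genes lower numbered 1533, 100 and 84. The receptor list median was -1.41 over all members, -3.35 without the Ins2 cut and -0.73 in T-receptor positive cells. In those cells 5 log2 ratios turned, to -0.81 for H2-Aa, -0.81 for H2-Ab1, -0.56 for Cd74, -1.79 for H2-DMa and -0.30 for Ppt1. Genes higher in the CD8 class numbered 36 without called doublets, where Apoe turned to -0.44, and 132 at 10 UMIs per gene. Genes lower numbered 36 with 2 coreceptor UMIs and 160 at 10 UMIs per gene. A median of 3703 UMIs per member leaves many genes undetected, so an absent UMI does not show an absent transcript.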
